A study of Mus musculus with 2 samples.

Results

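Myelin genes encode the proteins of the sheath that oligodendrocytes wrap around axons in the brain. The genes described here were Mbp, Mobp, Mog, Mag, Cnp, Mal and Cldn11, 7 of the 8251 genes that a platform annotation pairs with a probe set of the array. They were taken by name: every probe set paired with exactly 1 symbol, that of a member, was used, which gave 13 of the 10829 probe sets with 1 symbol. The data were 2 oligonucleotide arrays of total RNA from mouse cerebral cortex, 1 of mice with a conditional double knockout of presenilin (PS cDKO) and 1 of the control mice for them. All mice were 6 months old per the labels, which do not give the alleles of either group, the Cre line, the sex, or whether an array held RNA of 1 animal or of a pool. Mice known under the name PS cDKO in the literature lose presenilin mainly in excitatory neurons of the postnatal forebrain, through Cre under the CaMKII promoter, which is not active in oligodendrocytes. The sources used here do not say whether these mice were of that line.

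Myelin is a stack of oligodendrocyte membrane in which the cytoplasmic faces are drawn together by small basic proteins, above all myelin basic protein (Mbp) and the myelin-associated oligodendrocyte basic protein (Mobp). The radial spirals of the sheath are sealed by tight junction strands of claudin-11 (Cldn11), and Mal is a membrane proteolipid of lipid rafts that helps to sort myelin components. Mag is a sialic-acid-binding adhesion molecule of the membrane next to the axon, Mog lies on the outermost surface of the sheath, and Cnp is a cyclic nucleotide phosphodiesterase of the uncompacted parts of myelin. In mature oligodendrocytes many of these genes are under the transcription factors Sox10 and Myrf.

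Across the genotypes the members split. Every probe set of Mobp, and the probe sets above background of Mag, Mal and Cldn11, were dimmer on the PS cDKO array, while both probe sets of Mbp were brighter. Mobp differed most, by 1.36-fold lower as the mean of its 4 probe sets. Cldn11 was 1.28-fold lower from 1 probe set, Mag 1.16-fold lower, Mbp 1.12-fold higher, and Mal had a log2 ratio of -0.13. Mog and Cnp were at background on both arrays and gave no ratio. With 1 array per genotype, no difference can be set against the variation between animals, no p-value is given, and every ratio below describes these 2 arrays.

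The regions upstream of Mobp, Cldn11 and Mag are printed because these are the genes with a probe set at least 1.2-fold lower in PS cDKO, and because a known regulator of myelin genes has a short recognition core that a script can look for. The sequences are the 250 bases before the annotated start in RefSeq, build GRCm38.p6, read 5′ to 3′ on the gene's strand. Capitals mark ACAAAG, the core bound by Sox factors, CTGGCAC, a core bound by Myrf, and GGGCGG, the GC box, on either strand, so that CTTTGT is ACAAAG on the other strand. These letters were chosen after the sequences had been seen.
Mobp, chr9:120149492-120149741, plus strand: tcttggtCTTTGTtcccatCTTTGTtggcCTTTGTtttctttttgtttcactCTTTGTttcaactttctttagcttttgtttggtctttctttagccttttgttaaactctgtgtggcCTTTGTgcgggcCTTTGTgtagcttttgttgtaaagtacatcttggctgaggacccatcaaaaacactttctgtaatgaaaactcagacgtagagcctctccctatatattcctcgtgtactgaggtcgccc
Cldn11, chr3:31149670-31149919, plus strand: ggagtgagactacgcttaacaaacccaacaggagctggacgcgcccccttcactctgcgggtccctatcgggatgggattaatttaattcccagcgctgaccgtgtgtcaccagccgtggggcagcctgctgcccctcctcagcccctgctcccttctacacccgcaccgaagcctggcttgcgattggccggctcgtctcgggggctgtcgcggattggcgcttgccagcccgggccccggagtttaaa
Mag, chr7:30914864-30915113, minus strand: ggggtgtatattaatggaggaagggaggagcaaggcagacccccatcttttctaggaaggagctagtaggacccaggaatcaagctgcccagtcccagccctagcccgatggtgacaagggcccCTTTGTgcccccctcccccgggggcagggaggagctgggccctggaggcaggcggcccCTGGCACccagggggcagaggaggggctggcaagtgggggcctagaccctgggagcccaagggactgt

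The window of Mobp held ACAAAG 6 times, each time on the opposite strand, between 243 and 115 bases before the start. That was the highest number in any of the 32851 windows of the table, and no other window reached 6. Because the core was chosen after the sequences had been seen, this rank is no test. The core occurred at least once in 16.5% of windows. The Mag window held ACAAAG once, 126 to 121 bases before the start, and CTGGCAC once, 68 to 62 bases before it; CTGGCAC occurred in 4.19% of all windows. Of the 3 Mag windows in the table the one printed overlaps another that holds the same matches, and the third held none of the cores. Cnp held ACAAAG once, CTGGCAC once and GGGCGG 2 times, the last being present in 32.7% of all windows. The windows of Cldn11, Mal and Mog held none of these letters. No match overlapped another in the members' windows. Of the 7 members, 6 were matched to a window, all but Mbp. The Mobp window was poor in G and C, with 40.8% against a median of 52.4% over all windows. These matches describe the letters only.

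Mobp, an abundant basic protein of the cytoplasmic face of central myelin, had 4 probe sets, and all of them gave a lower intensity in PS cDKO. Probe set 100536_at read 1453 in the control and 884 in PS cDKO, probe set 99046_at 1177 and 903, probe set 99047_at 1710.2 and 1366, and probe set 99048_g_at 577 and 413. The control intensity was thus the higher one in each of the 4. To compare arrays, PS cDKO intensities were scaled by adding 0.034 on the log2 scale, and intensities under a floor of 232, the 40th percentile of both arrays pooled, were treated as background. Intensities are printed as deposited, and folds and log2 ratios are those after scaling. On the scaled values the log2 ratios of PS cDKO over control were -0.68, -0.35, -0.29 and -0.45 in the same order. Probe set 100536_at lay in the lowest 0.465% of the 7091 probe sets that exceeded the floor on both arrays, at rank 33 from the lowest, and the remaining 3 lay in the lowest 3.61% to 11.7%.

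The mean log2 ratio of Mobp was -0.44, with an SD of 0.17 over its 4 probe sets. The probe sets share the array and the RNA, and 99047_at and 99048_g_at are paired with the same sequence record in the annotation, so they are not independent measurements and this SD holds no variation between animals. Leaving out 1 probe set at a time gave mean log2 ratios from -0.49 to -0.36, the latter without 100536_at. Its brightest probe set alone, 99047_at, gave a 1.22-fold lower signal, and after quantile or lowess normalization that probe set had log2 ratios of -0.22 and -0.22, short of 1.2-fold. All 4 probe sets stayed lower under each scaling and each floor tried.

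Mbp, the main protein that holds the cytoplasmic faces of myelin together, went the other way. Probe set 96311_at read 1940.8 in the control and 2235 in PS cDKO, and probe set 96310_at read 843 and 884. Both were brighter in PS cDKO, with log2 ratios of 0.24 and 0.10, the mean being 0.17 with an SD of 0.10 over the probe sets. Neither reached 1.2-fold, but after quantile or lowess normalization 96311_at did, with log2 ratios of 0.32 and 0.33. The Mbp gene also gives rise to the golli transcripts, which begin at an upstream start, and the sources used here do not say which transcripts each probe set reads. No probe set of Mbp had a ratio as low as any probe set of Mobp: the lowest of Mbp and the highest of Mobp lay 0.39 apart on the log2 scale. Because both genes were read on the same arrays, the difference of their mean log2 ratios, -0.61 for Mobp minus Mbp, does not depend on a common scaling factor. It shows unequal ratios on these arrays and not that either gene held its level.

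**Figure D1:**
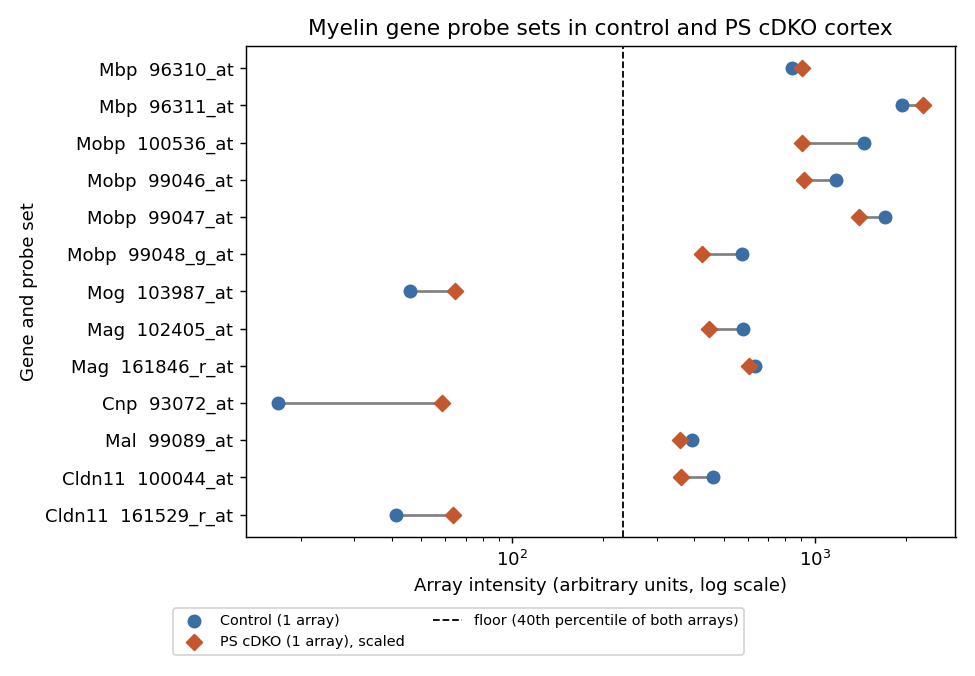
Array intensity (arbitrary units, log axis) of the 13 probe sets of the 7 myelin genes on the control array (circles) and the scaled PS cDKO array (diamonds), with the floor of 232 as a dashed line. All 4 Mobp probe sets lie to the left in PS cDKO, both Mbp probe sets to the right, and the 3 probe sets of Mog, Cnp and Cldn11 at the left edge are under the floor on both arrays.

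Among the genes of the junctions and rafts, Cldn11, the claudin of the strands that seal the sheath, had 2 probe sets that could not be compared with each other. Probe set 100044_at read 463 in the control and 353 in PS cDKO, a log2 ratio of -0.36, in the lowest 7.31% of probe sets. Probe set 161529_r_at read 41.3 and 61.9, under the floor on both arrays, so that it gave no ratio and the direction of Cldn11 rests on 1 probe set. Taken with no floor at all, the mean of both turned to 0.13, higher in PS cDKO, since the ratio of the background-level probe set then counted as much as that of the bright one. Mal, the raft proteolipid, had 1 probe set, which read 391 in the control and 349 in PS cDKO, a log2 ratio of -0.13. That is within the middle of the distribution, as 28.8% of probe sets had a ratio as low or lower.

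Mag, the adhesion molecule facing the axon, had 2 probe sets that were both lower but by unlike amounts. Probe set 102405_at read 579.6 in the control and 438 in PS cDKO, which after scaling was 1.29-fold lower, a log2 ratio of -0.37. Probe set 161846_r_at read 634 and 594, a log2 ratio of only -0.06, above that of 39.7% of probe sets. The gene's mean of -0.21 had an SD of 0.22 over these 2 probe sets, larger than the mean itself. The suffix _r marks probe sets made under relaxed design rules, and without that probe set the gene's log2 ratio was -0.37.

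Mog, the surface glycoprotein, read 45.8 in the control and 62.9 in PS cDKO. Cnp, the phosphodiesterase, read 16.8 and 57.3. Both lay far under the floor on each array, where intensities have no usable order, so no fold is given. This says that the probe sets gave no signal above background here and not that the genes were silent in the cortex.

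Of the 13 probe sets, 10 were above the floor on both arrays, and of these 8 were lower and 2 higher in PS cDKO. Among all 7091 such probe sets 49% were lower. At least 1.2-fold lower were 6 of the 10 (4 of Mobp and 1 each of Mag and Cldn11), against 14% of all probe sets, and 0 of the 10 were at least 1.2-fold higher, against 12.9%. Since 4 of the 6 belong to Mobp, the count by gene is smaller: 2 of 5 genes, Mobp and Cldn11, were at least 1.2-fold lower, against 13.2% of 5414 genes above the floor, and none at least 1.2-fold higher, against 11.9%. At 1.5-fold a single member probe set remained, 100536_at of Mobp, against 1.11% of all. Restricted to the 5060 probe sets with a control intensity at least that of Mal, the dimmest of the 10, the shares of all probe sets were 17.6% at least 1.2-fold lower and 9.29% at least 1.2-fold higher. The median log2 ratio over the 5 genes was -0.21, and over all genes above the floor it was 0.01. The median of the members was -0.36 without suffixed probe sets and -0.13 with the brightest probe set of each gene, and it turned to 0.13 with no floor, where Mog, Cnp and the dim Cldn11 probe set entered.

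**Figure D2:**
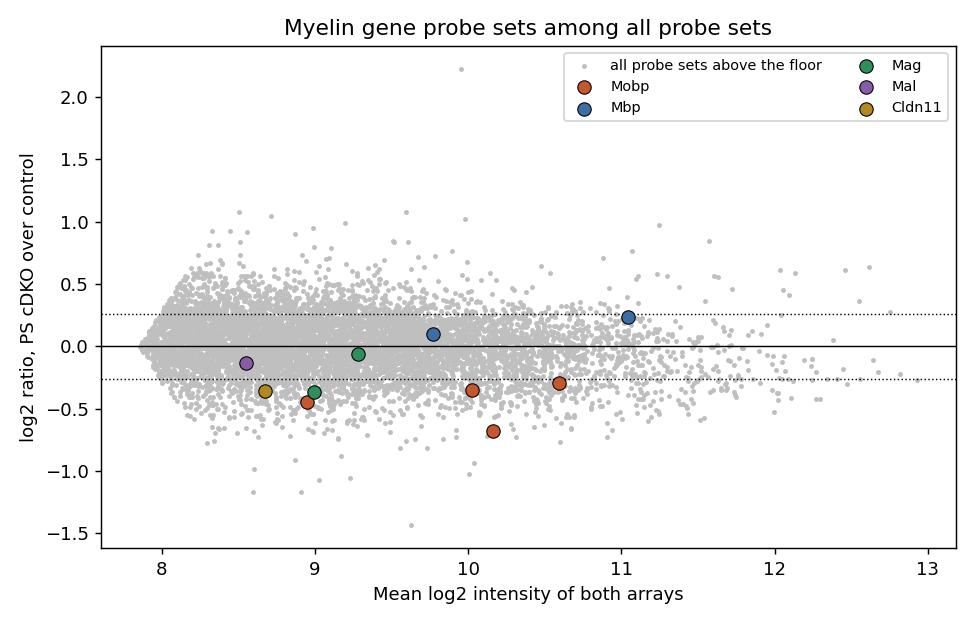
Log2 ratio of PS cDKO over control against the mean log2 intensity of both arrays for all 7091 probe sets exceeding the floor (grey) and the 10 of the myelin genes (coloured by gene), with dotted lines at 1.2-fold in either direction. The 4 Mobp points lie below the lower dotted line, and both Mbp points lie between 0 and the upper one.

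The agreement among probe sets was set beside that of all genes with several of them. Mobp was 1 of 11 genes with at least 4 probe sets above the floor. In 2 of those 11 all probe sets had the same sign, and Mobp was the only one in which every probe set was lower, and each of its 4 by at least 1.2-fold. Its SD of 0.17 equalled the median SD of 0.17 over these 11 genes to that precision. Mag and Mbp were among 668 genes with 2 probe sets, of which 58.5% had both on the same side and 26.8% both lower. The SD of Mbp was at or above that of 33.5% of the 749 genes with several probe sets, and the SD of Mag at or above that of 72.5%. The pooled SD of single probe sets within genes was 0.21, which holds only the scatter on these 2 arrays.

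**Figure D3:**
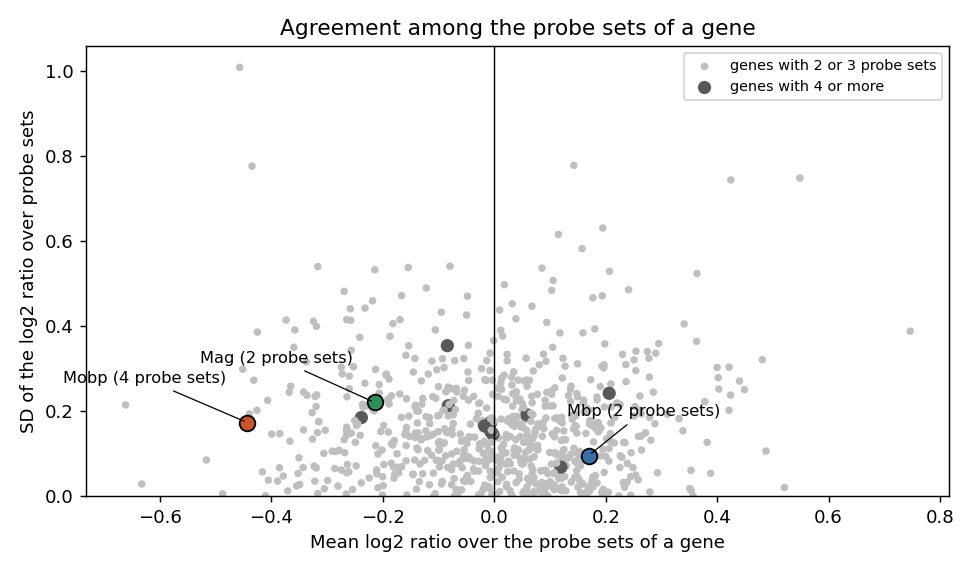
SD of the log2 ratio over the probe sets of a gene against their mean log2 ratio, for the 749 genes with several probe sets above the floor (large dark points: those with at least 4). Mobp lies at a mean of -0.44 and an SD of 0.17, farther to the left than the other 10 genes with at least 4 probe sets.

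Other genes of oligodendrocytes lay on both sides of 0. Of 42 listed further myelin and oligodendrocyte genes, 19 were on the array under 1 symbol and 12 were above the floor on both arrays. Of these 6 were lower and 6 higher, with a median log2 ratio of 0.00; 2 were at least 1.2-fold lower, against 13.2% of all genes, and 0 at least 1.2-fold higher, against 11.9%. The 2 were Sirt2, a deacetylase found in myelin, at 607 in the control and 468 in PS cDKO (1.27-fold lower), and Car2, the carbonic anhydrase of oligodendrocytes, at 1298 and 1000.4 (1.27-fold lower). The proteolipid gene Gpm6b was 1.19-fold lower, and Ugt8a, which makes the myelin lipid galactosylceramide, was 1.19-fold higher. Of the 7 others on the array, 5 were under the floor on both arrays and 2 gave bounds, which were singled out after their values had been seen. The tetraspanin Cd9, which other brain cells express too, read 176 in the control and 563 in PS cDKO, at least 2.49-fold higher, and the lysophosphatidic acid receptor Lpar1 read 274 and 213, at least 1.18-fold lower.

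Genes of precursors and of the lineage's transcription factors had a median log2 ratio of -0.03 over 8 genes, 5 lower and 3 higher. Among all genes above the floor 49.2% were lower. Ptprz1, a receptor phosphatase of precursors and astrocytes, was 1.32-fold lower and Nkx6-2, a homeobox factor of oligodendrocytes, 1.21-fold higher, both near the floor. The Ptprz1 value rests on 1 of 3 probe sets (312 and 230), and the others were under the floor on both arrays. Id2, an inhibitor of differentiation, was 1.16-fold lower and Tcf7l2, a Wnt effector of newly formed oligodendrocytes, had a log2 ratio of 0.14. Sox10 and Myrf, the factors that drive myelin genes, had log2 ratios of 0.05 and 0.23, and both were chosen after their values had been seen. The 2 probe sets of Sox10 went opposite ways, with log2 ratios of 0.15 and -0.05.

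Ligands, receptors and signalling genes between axon and myelin showed a median log2 ratio of 0.05 over 17 genes. Of these 3 were at least 1.2-fold lower, against 13.2% of all genes, and 0 at least 1.2-fold higher, against 11.9%. Rtn4, which encodes the neurite growth inhibitor Nogo and is expressed by neurons as well as oligodendrocytes, read 1945 in the control and 1391 in PS cDKO (1.37-fold lower). The growth factor Fgf2 was 1.28-fold lower, the kinase Akt1 1.22-fold lower and the receptor Notch1 1.19-fold higher. The Notch1 value rests on 1 of 2 probe sets (610 and 712), which has the suffix _r. The other, without a suffix, read 206 in the control and 145 in PS cDKO, under the floor on both arrays. Axonal genes of the node and paranode had a median of -0.09 over 10 genes. Among them Cntnap1, the axonal partner of the paranodal junction, was 1.23-fold higher, the node scaffold Ank3 1.19-fold lower, and the sodium channels Scn8a and Scn1a had log2 ratios of -0.16 and -0.13.

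Cholesterol and myelin lipid synthesis genes had a median of -0.02 over 18 genes. Of these 1 was at least 1.2-fold lower, against 13.2% of all genes, and 3 at least 1.2-fold higher, against 11.9%. Fdps, which makes farnesyl diphosphate, was 1.31-fold lower, while Nsdhl, a sterol dehydrogenase, was 1.38-fold, the fatty acid elongase Elovl5 1.33-fold and the mevalonate kinase Mvk 1.21-fold higher. The Nsdhl value rests on 1 of 3 probe sets, near the floor (241 and 325), while another read 252 and 206, and the 2 probe sets of Mvk had log2 ratios of 0.03 and 0.52. Schwann cell and peripheral myelin genes, listed as markers of nerve tissue, had a median of -0.04 over 6 genes. Dhh had a log2 ratio of -0.26, the mean of probe sets at -0.43 and -0.10. Ncam1 was 1.18-fold lower, Pmp22 1.15-fold higher and L1cam 1.12-fold lower. Which cells the signals of Ncam1 and L1cam came from was not tested.

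**Figure D4:**
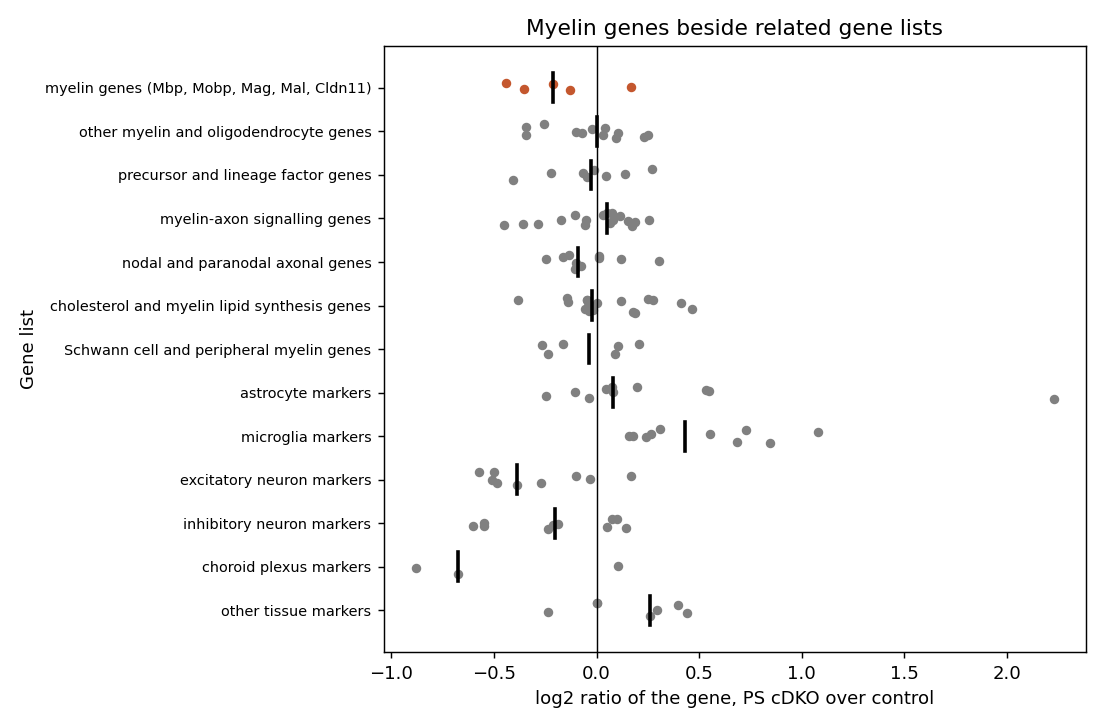
Log2 ratio of PS cDKO over control for each gene above the floor on both arrays, by gene list, with the list's median as a black bar. The 5 myelin genes (top) have a median of -0.21, the other myelin and oligodendrocyte genes one of 0.00, the excitatory neuron markers one of -0.39 and the microglia markers one of 0.43.

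Markers of other cells are set beside all 5414 genes above the floor, of which 49.2% were lower and 50.8% higher. At least 1.2-fold lower were 6 of 9 excitatory and 3 of 10 inhibitory neuron markers, against 13.2% of all genes. None of these was at least 1.2-fold higher. At least 1.2-fold higher were 7 of 10 microglia and 3 of 10 astrocyte markers, against 11.9%, and none was at least 1.2-fold lower. Of 9 excitatory neuron markers 8 were lower; their median log2 ratio was -0.39, with a summed scaled intensity of 13862 in the control and 10416 in PS cDKO; Nrgn, Tbr1, Hpca and Camk2b were 1.49-fold, 1.43-fold, 1.41-fold and 1.40-fold lower. Of 10 inhibitory neuron markers 6 were lower, with a median of -0.20 and a ratio of summed intensities of 0.807. Cck, Sst and Npy were 1.52-fold, 1.47-fold and 1.47-fold lower and Slc32a1 1.18-fold lower. Cck read 2843 in the control and 1828 in PS cDKO, and whether its signal came from inhibitory neurons alone was not tested. The 4 inhibitory neuron markers that were higher were Calb2, Gad1, Vip and Reln, with log2 ratios of 0.14, 0.10, 0.07 and 0.05. All 10 microglia markers above the floor were higher, with a median of 0.43 and sums of 5656 and 8128. C1qa, Ctss, C1qc and Itgam were 2.11-fold, 1.79-fold, 1.66-fold and 1.61-fold higher, and Aif1 and Fcer1g were under the floor on both arrays. Of 10 astrocyte markers 7 were higher, with a median of 0.08 and a ratio of summed intensities of 1.08; Gfap, Gja1 and Aqp4 were 4.68-fold, 1.46-fold and 1.45-fold higher and Aldoc 1.19-fold lower. For Gja1 the bright probe set (1455 and 1440.4) had a log2 ratio of 0.02, and a further one near the floor (249.8 and 515) had 1.08. The 10 probe sets of the myelin genes summed to 9769 in the control and 8618 in PS cDKO. The part of these shifts in the myelin gene ratios was not tested, and in bulk tissue fewer oligodendrocytes and less RNA per oligodendrocyte cannot be told apart.

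Of the markers used to check the labelled tissue, the cortical neuron genes Nrgn, Camk2a and Tbr1 were above the floor on both arrays. Camk2a was so with 1 of its 2 probe sets, and the other (234 and 167) was under the floor in PS cDKO. The neuron markers Neurod6, of the excitatory list, and Gad2, of the inhibitory list, were under the floor on both arrays. Of 5 choroid plexus markers on the array, Kl and Slc4a5 were under the floor on both arrays and 3 were above it: Ttr read 782 in the control and 415 in PS cDKO (1.84-fold lower), Igfbp2 492 and 301 (1.60-fold lower), and Folr1 was 1.07-fold higher. The floor does not show presence of a transcript, since 7 of 9 markers of other organs were also above it, among them Ins2 (1.36-fold higher), Tg (1.32-fold), Alb (1.23-fold) and Ckm (log2 ratio 0.26), with a list median log2 ratio of 0.26. The control intensities of the measured members ran from 391 to 1940.8, and that of Tg, the thyroid hormone precursor, was 698. Those of Apoa1 and Umod, also markers of other organs and singled out after their values had been seen, were 1631 and 1497. Of the 7 such markers above the floor, 6 were higher in PS cDKO, against 50.8% of all genes, and 1, Umod, was lower (1.18-fold). Psen2, a presenilin gene, read 105 in the control and 94.9 in PS cDKO, under the floor on both arrays, so it gave no check of the genotype.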

How the data were processed

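The material was cortical total RNA on 2 arrays, 1 control and 1 PS cDKO. The authors deposited linear intensities, 1 for each of 12418 probe sets on an array; the sources used here name no summary software, background step or scaling. The deposited medians were 299.7 and 305, and 13 and 18 intensities were negative. The number of arrays limits the precision. The annotation names 1 gene for 10829 probe sets, several for 396 and none for 1193.

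PS cDKO intensities were scaled to a median log2 ratio of 0 over the probe sets in the upper part of each array's ranking (above its median). A floor was then set at the pooled 40th percentile before log2 was taken. Probe sets exceeding it on both arrays were averaged per gene. A gene was counted at 1.2-fold or more, with no test. Named beside the members were up to 4 genes of each of 12 lists with the largest absolute log2 ratio. Members and lists were chosen with earlier results of these data known. The scripts were tested on simulated data. Python 3.11.15, numpy 2.4.6, pandas 2.3.3, statsmodels 0.14.6 and matplotlib 3.10.9 were used.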

Additional observations from a re-analysis of the deposited data

How the results depend on the processing

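No paired analysis was possible because there is a single array of either genotype, which also means that none could be left out. Tried were unscaled intensities, quantile and lowess normalization (span 0.3), a lower (20th percentile), a higher (60th percentile) and no floor, no suffixed probe sets, a gene's brightest or median probe set, other fold thresholds, and the median over probe sets. Leaving out each Mobp probe set in turn was added after the data were seen. Values were compared with the pooled SD within genes of 0.21. Of 82 alternative values 75 stayed within that SD, or for counts within 1.5 times. That count does not measure robustness. The SD is larger in size than the log2 ratios of Mbp (0.17) and Mal (-0.13), which could fall to 0 and stay within it. Mag at -0.06 with its brightest probe set also counted as within it. Several settings could not change Mal or Cldn11, each of which had 1 probe set above the floor. With no floor the median over the members became 0.13 in place of -0.21, because Mog, Cnp and the dim Cldn11 probe set then entered, and Cldn11 turned to 0.13. The number of member probe sets at least 1.2-fold higher, 0, became 1 after quantile normalization, 1 after lowess, 3 with no floor and 1 at a 1.1-fold threshold. The number at least 1.2-fold lower, 6, became 1 at 1.5-fold. With the higher floor Mal was under the floor on both arrays and Cldn11 gave a bound, so that neither had a value there. Mobp ranged from -0.49 to -0.29, Mbp from 0.14 to 0.24, Mag from -0.37 to -0.06 and Mal from -0.16 to -0.13.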
